A study of Homo sapiens with 6 samples.

Results

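Genes of glycolysis and of the response to low oxygen were followed in oral squamous cell carcinoma (OSCC) cells after knockdown of the long noncoding RNA DLEU1. The members were 40 genes taken by the gene name printed for each probe on the array, of 36337 gene names on the array, and they were read by 55 probes. They comprised 4 glucose and lactate transporters, 17 glycolytic enzymes, 4 kinases that set flux through the pathway, 13 targets of the hypoxia-inducible factors (HIF) outside glycolysis and 2 HIF alpha subunits. Either a control siRNA (siCtrl) or an siRNA against DLEU1 (siDLEU1-2) was transfected into 3 established OSCC lines (HSC-3, KON, Ca9-22), and total RNA was taken after 72 h. Each line and siRNA gave 1 one-color Agilent array, 6 in all, so the 3 lines stood in for replicates and no line had a repeat of its own. A single siRNA was used, and no low-oxygen treatment was named for any culture. Levels below are log2 processed signals relative to the 75th percentile of the same array, and they can be compared between arrays for a probe but not between probes.

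Glycolysis splits glucose to pyruvate in the cytosol, and lactate dehydrogenase turns pyruvate into lactate, which leaves the cell through monocarboxylate transporters. Phosphofructokinase catalyzes its main committed step. HIF is a dimer whose alpha subunit is hydroxylated by the EGLN prolyl hydroxylases and degraded when oxygen is present, and when stable it binds a short core motif near genes for glucose uptake, nearly every glycolytic step, blood vessel growth, pH control and mitophagy. Many squamous carcinomas of the head and neck have hypoxic areas and a high rate of lactate output.

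DLEU1 itself, the target of the siRNA, was lower on every siDLEU1-2 array. Its level went from 1.39 with siCtrl to -2.71 with siDLEU1-2 for HSC-3, from 2.16 to -1.48 for KON, and from 1.56 to -1.88 for Ca9-22, which was 17.1-, 12.4- and 10.8-fold lower. Of 10 squamous epithelial marker genes, 9 were well above background on all 6 arrays, and TP63 was on 5. Of 5 leukocyte markers CD14 and CD68 were well above background on all arrays, COL1A1 was the only one of 6 fibroblast markers to be so and 4 of the 6 were on no array, and none of the 3 endothelial markers was on all arrays. COL1A1 was higher after siDLEU1-2 in every line, from -0.65 to 1.43 for HSC-3, from -0.30 to 1.02 for KON and from -0.34 to 0.62 for Ca9-22, and the summed signal of the 6 fibroblast genes, relative to the 75th percentile, lay from 0.758 to 0.919 after siCtrl and from 1.75 to 2.95 after siDLEU1-2. The fibroblast genes COL1A2, COL3A1, PDGFRA and LUM were those on no array. Of the leukocyte markers CD14 was higher and CD68 lower in every line, and of 13 squamous marker probes tested 3 were higher in every line, those of EPCAM and JUP among them, and 8 were lower, TP63, KRT5, KRT6A, SFN and DSP among them. The summed relative signal ranged from 622 to 2456 after siCtrl and from 459 to 1728 after siDLEU1-2 for the squamous markers, from 1.13 to 51.5 and from 1.27 to 66.1 for the leukocyte markers, and from 0.312 to 0.945 and from 0.485 to 1.78 for the endothelial markers. The part of these shifts in the results given here was not tested. Between 43.0% and 45.7% of the probes on an array were well above background, and no spot was saturated. The arrays measured RNA from whole cultures, so fewer cells that express a gene and less of its RNA per cell cannot be told apart.

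Because HIF can bind close to a gene's start, promoters of 4 members are shown, in lower case 5′ to 3′ with every core motif, ACGTG or GCGTG on either strand, in capitals. They were chosen with the values known, to set EGLN3, which rose most of the members tested, beside the textbook HIF target PGK1, the member found in 1 line only, CA9, and the member with the most ACGTG matches of those shown, ANKRD37. The stretches end just upstream of the annotated start (RefSeq, GRCh38.p14).
EGLN3, chr14:33951075-33951324, minus strand: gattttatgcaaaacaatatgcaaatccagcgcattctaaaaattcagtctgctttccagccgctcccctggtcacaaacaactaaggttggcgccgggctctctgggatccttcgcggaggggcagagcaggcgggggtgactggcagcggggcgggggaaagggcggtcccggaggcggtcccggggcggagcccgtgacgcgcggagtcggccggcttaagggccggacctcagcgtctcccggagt
PGK1, chrX:78103998-78104247, plus strand: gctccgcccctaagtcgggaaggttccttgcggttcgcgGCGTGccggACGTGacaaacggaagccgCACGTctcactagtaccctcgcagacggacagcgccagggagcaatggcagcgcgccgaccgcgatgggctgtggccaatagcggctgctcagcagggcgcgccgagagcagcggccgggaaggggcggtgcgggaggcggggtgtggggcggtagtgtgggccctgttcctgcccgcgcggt
CA9, chr9:35673678-35673927, plus strand: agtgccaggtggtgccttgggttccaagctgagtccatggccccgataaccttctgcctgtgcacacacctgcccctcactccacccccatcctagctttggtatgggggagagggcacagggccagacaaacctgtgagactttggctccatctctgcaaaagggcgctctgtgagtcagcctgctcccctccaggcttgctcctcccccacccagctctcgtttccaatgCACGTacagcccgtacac
ANKRD37, chr4:185396591-185396840, plus strand: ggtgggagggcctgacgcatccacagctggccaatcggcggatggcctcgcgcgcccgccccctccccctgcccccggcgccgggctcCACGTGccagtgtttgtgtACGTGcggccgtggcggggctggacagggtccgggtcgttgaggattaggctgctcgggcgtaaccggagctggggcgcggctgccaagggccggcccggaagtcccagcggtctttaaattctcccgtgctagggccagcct
EGLN3 held neither motif in this window, and sequence outside the window was not searched for any gene. PGK1 held 2 ACGTG and 1 GCGTG, CA9 held 1 ACGTG, and ANKRD37 held 3 ACGTG, of which 2 come from a single CACGTG, a palindrome that both strands match. Promoters were found for 35 of the 40 members, 62 promoters in all, and not for SLC2A3, SLC16A1, VEGFA, NDRG1 and BNIP3L. Either motif stood in 37 of the 62 (59.7%), against 15172 of all 35116 promoters of that length (43.2%). ACGTG stood in 24 of 62 (38.7%) against 18.5% of all promoters, and GCGTG stood in 20 of 62 (32.3%) against 32.2%. CACGTG, which is also the site of MYC and related factors, stood in 8 of 62 (12.9%) against 6.34%. Among the HIF targets outside glycolysis 8 of 10 promoters held either core motif, among the glycolytic enzymes 19 of 37. Promoters of 1 gene were counted separately, and HK1 and PFKM had 7 each, of which 1 each held a motif. Each HIF target found had 1 promoter, so these shares do not compare genes. By gene, 29 of the 35 members found held either motif in at least 1 promoter. A match is only a match of letters and no binding was measured.

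The strand of siDLEU1-2 that guides silencing is given because its seed can pair with other transcripts, and the capitals mark the seed, bases 2 to 8.
siDLEU1-2 antisense strand: uUAAGUGCgauaaccccugua
The DNA complement of the seed, GCACTTA, stood in none of the 47 member probes that were tested, and in 57 of all 19956 probes tested. The probes cover only a short stretch of each transcript, so the rest of the members' transcripts was not searched.

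After DLEU1 knockdown the lactate exporter SLC16A3 and the prolyl hydroxylase EGLN3 rose, the phosphofructokinase gene PFKM fell, and no other member passed the test. Of the 55 probes, 47 for 36 genes were kept for testing, and 46 of the 55 were well above background on every array. Limma, blocked on cell line and adjusted over all 19956 probes kept, called 2 member probes higher after siDLEU1-2, those of SLC16A3 and EGLN3, where 3.98% of all probes were called higher. It called 1 lower, that of PFKM, where 4.52% of all probes were called lower. PFKM and EGLN3 also changed over 2-fold in the same direction in all 3 lines, which 4.16% of all probes did. The share of members called was thus near that of all probes. EGLN3 passed the filter in KON only through the siDLEU1-2 array, where it was brighter, so its call is not independent of the filter. At an unadjusted p under 0.05 there were 16 member probes, and 8 had an adjusted p from 0.05 to 0.1. Without any test, 21 of the 47 member probes were higher in every line, against 26.9% of all probes, and 9 were lower in every line, against 26.7%. With 1 probe per gene, 7 of 10 HIF targets outside glycolysis were higher in every line and none was lower, while of 17 glycolytic enzymes 5 were higher and 5 lower in every line. The difference between these roles was not tested. The HIF targets CA9, CA12 and ANGPTL4 were not kept and are outside these counts. CA12 was lower in HSC-3 and KON, and ANGPTL4 was lower in HSC-3 and higher in KON.

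**Figure D1:**
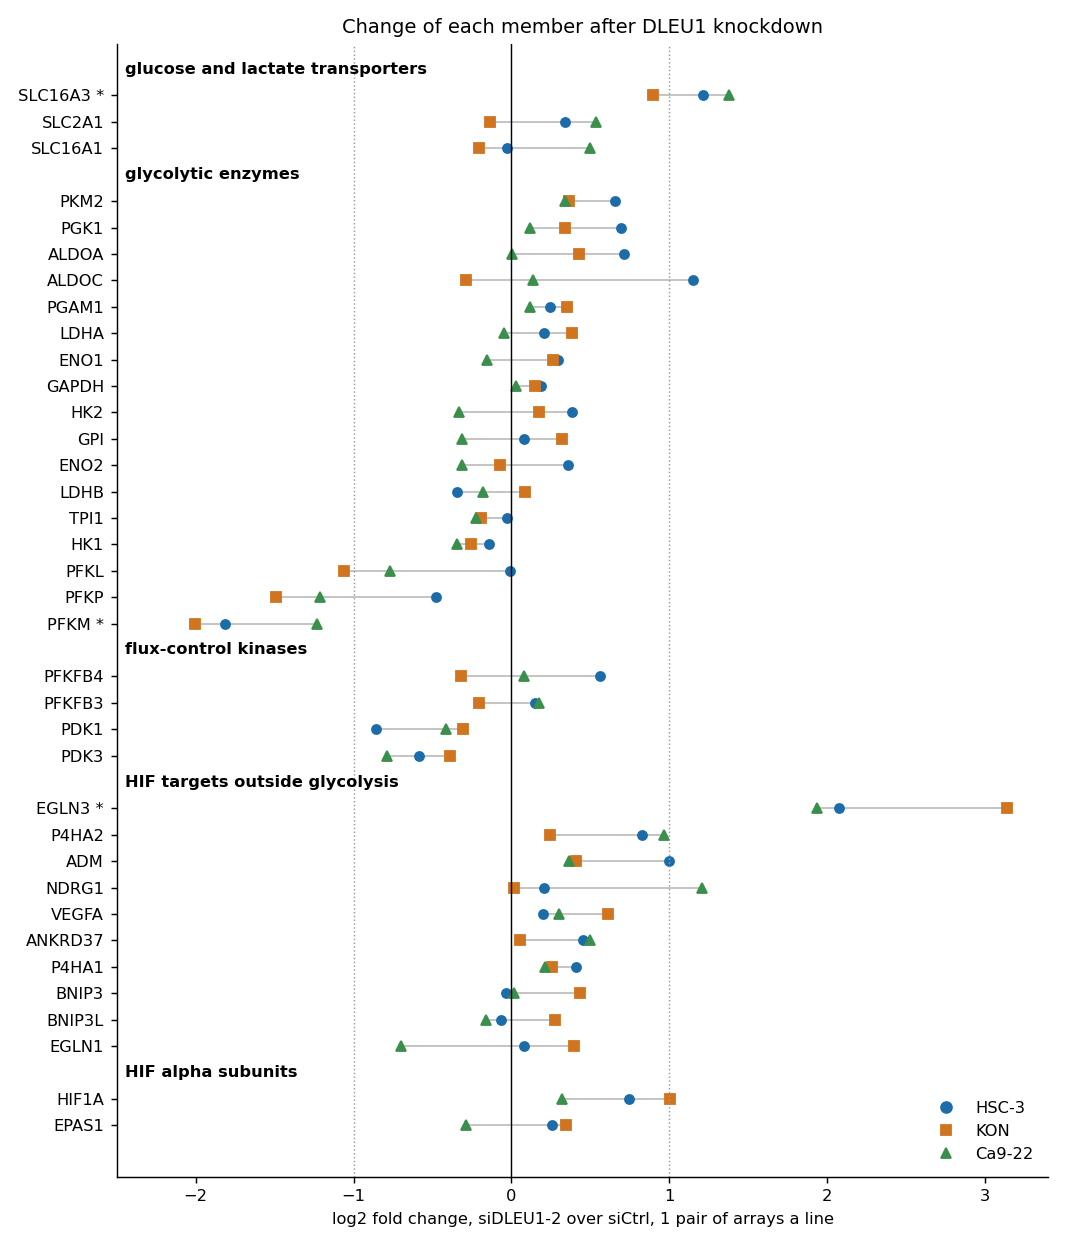
Log2 fold change of each tested member gene after siDLEU1-2 over siCtrl, one symbol for each cell line, grouped by role, with dotted lines at a 2-fold change and an asterisk on the 3 genes called by limma. EGLN3 lies between 1.93 and 3.14 and PFKM between -2.005 and -1.23, while most other genes lie within a 2-fold change in every line.

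Among the transporters, SLC16A3 (MCT4), which carries lactate out of glycolytic cells, rose in all 3 lines. Its probe (hg19 chr17:80197288-80197347, transcript NM_001042422) went from 6.95 with siCtrl to 8.16 with siDLEU1-2 for HSC-3, from 4.92 to 5.82 for KON, and from 6.03 to 7.41 for Ca9-22. The levels of the 2 siRNAs overlapped across lines, since HSC-3 after siCtrl was above KON after siDLEU1-2, but each line was higher after siDLEU1-2 than after its own siCtrl. The changes were 2.31-, 1.86- and 2.60-fold, and the log2 fold change averaged 1.16 ± 0.24 (SD, n = 3 lines, limma adjusted p = 0.0306). With 1 line left out the limma adjusted p became 0.110 without HSC-3, 0.103 without KON and 0.0970 without Ca9-22. With HSC-3 or KON left out, limma called 0 of all 19956 probes, with 4547 and 4676 at an unadjusted p under 0.05. SLC16A1 (MCT1), the related carrier that moves lactate in either direction, averaged 0.09 ± 0.36 and SLC2A1 (GLUT1), the basal glucose transporter, 0.25 ± 0.34, and neither was called by limma (adjusted p = 0.798 and 0.431).

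SLC2A3 (GLUT3), a high-affinity glucose transporter, was dim in KON and was therefore not tested, but both of its probes were brighter after siDLEU1-2 in the other lines. The first (hg19 chr12:8072924-8072983) went from -0.82 to 2.46 for HSC-3, where both arrays were well above background, and from -5.35 to -0.74 for Ca9-22, where only the siDLEU1-2 array was. The other (hg19 chr12:8075591-8077035) went from -3.47 to -0.16 for HSC-3 and from -5.39 to -2.82 for Ca9-22, with the siDLEU1-2 arrays alone well above background. In KON the levels lay from -5.77 to -4.59 and no array was well above background. A level that was not well above background gives only a bound, so the dim side was set at its own signal or at the dimmest signal found well above background on that array, whichever was higher. The first probe was then 9.72-fold higher in HSC-3 and at least 6.49-fold higher in Ca9-22, and the other at least 9.89- and at least 1.54-fold higher.

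Among the enzyme genes only PFKM, the muscle-type gene of phosphofructokinase, was called, and its RNA fell. The PFKM probe (hg19 chr12:48539724-48539783, transcript NM_000289) went from 4.54 with siCtrl to 2.73 with siDLEU1-2 for HSC-3, from 4.90 to 2.90 for KON, and from 4.54 to 3.31 for Ca9-22. All 3 siDLEU1-2 arrays were below all 3 siCtrl arrays. The gene was 3.52-, 4.01- and 2.34-fold lower, and the log2 fold change averaged -1.68 ± 0.40 (SD, n = 3 lines, limma adjusted p = 0.0266). The limma adjusted p was 0.0929 without HSC-3, 0.105 without KON and 0.0490 without Ca9-22.

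The other subunit genes of the same enzyme also had lower values after siDLEU1-2 but were not called. PFKP, the platelet type, went from 6.67 to 6.20 for HSC-3, from 6.53 to 5.04 for KON, and from 3.85 to 2.64 for Ca9-22, a mean of -1.06 ± 0.53 (limma adjusted p = 0.0642), and its second probe gave -1.01 ± 0.53 (limma adjusted p = 0.0714). PFKP crossed the threshold when background was corrected by normexp (limma adjusted p = 0.0406) and when only probes well above background on all 6 arrays were tested (limma adjusted p = 0.0464). PFKL, the liver type, went from 2.27 to 2.26 for HSC-3, from 1.498 to 0.43 for KON, and from 1.70 to 0.93 for Ca9-22, a mean of -0.61 ± 0.54 (limma adjusted p = 0.181). For both genes the smallest change was in HSC-3, where PFKL was nearly level.

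**Figure D2:**
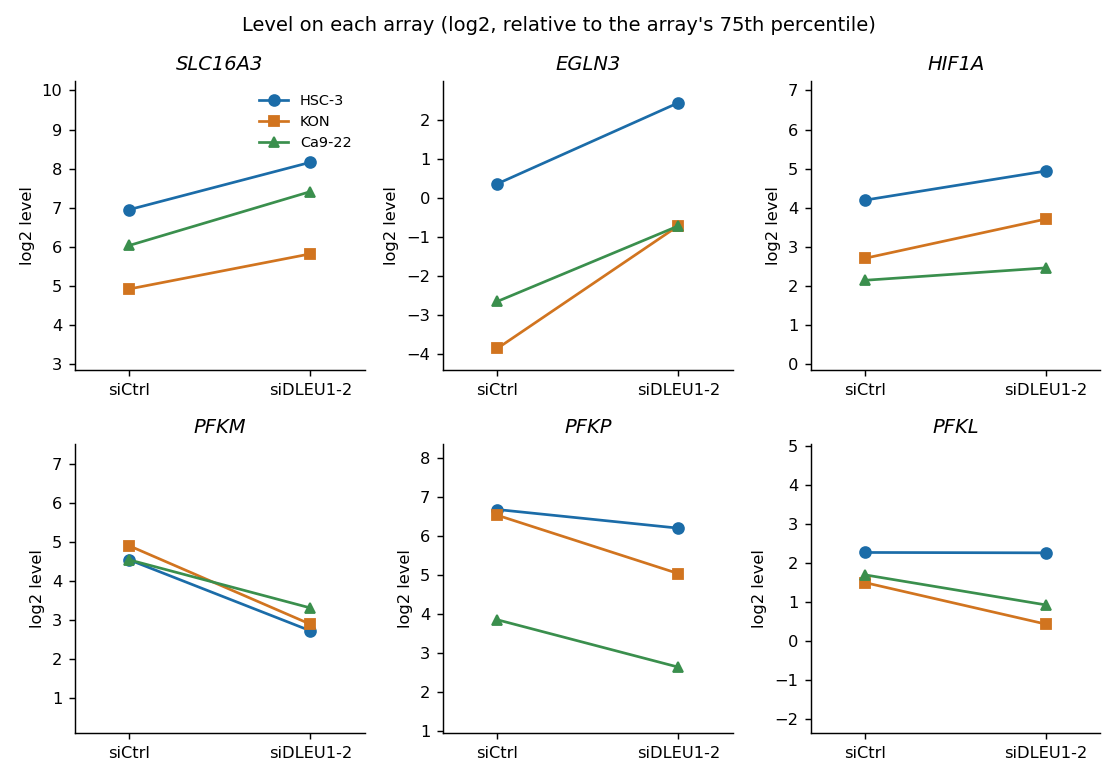
Log2 level relative to the 75th percentile of the array for SLC16A3, EGLN3, HIF1A and the phosphofructokinase genes PFKM, PFKP and PFKL, with 1 line for each cell line from siCtrl to siDLEU1-2. The vertical axes have the same span in every panel. SLC16A3, EGLN3 and HIF1A slope upward in every cell line, PFKM and PFKP slope downward in every cell line, and PFKL is flat in HSC-3.

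The remaining enzymes stayed within 1 log2 unit of siCtrl in every line, apart from ALDOC, an aldolase of neural tissue, which went from 0.997 to 2.15 for HSC-3 but from 1.14 to 0.86 for KON. None of them was called. The highest means were those of PKM2 (pyruvate kinase, now named PKM) at 0.45 ± 0.18, PGK1 (phosphoglycerate kinase) at 0.38 ± 0.29, ALDOA (the main aldolase) at 0.38 ± 0.36 and ALDOC at 0.33 ± 0.74, followed by PGAM1 (phosphoglycerate mutase) at 0.24 ± 0.12. LDHA, which makes lactate, was at 0.18 ± 0.22, and LDHB, its partner subunit, was at -0.15 ± 0.22. GAPDH and ENO1, which catalyze steps before and after PGK1, were at 0.12 ± 0.08 and 0.13 ± 0.25. The hexokinases that trap glucose were at -0.25 ± 0.10 for HK1 and 0.08 ± 0.37 for HK2, and GPI, ENO2 and TPI1 were at 0.03, -0.01 and -0.15. The second LDHA probe is annotated to chr9:14921817-14921876, away from the gene on chromosome 11, and many of these enzymes have near-identical copies in the genome whose transcripts a probe may also bind. Both LDHA probes gave similar changes, 0.18 and 0.27.

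The kinases that tune flux showed no call. PDK1 and PDK3, which switch off pyruvate dehydrogenase and so keep pyruvate out of the mitochondrion, were lower in every line. PDK1 went from 1.37 to 0.52 for HSC-3, from 1.03 to 0.72 for KON, and from -0.26 to -0.67 for Ca9-22, a mean of -0.53 ± 0.29 (limma adjusted p = 0.127). PDK3 went from 0.67 to 0.09, from -0.16 to -0.55 and from -0.47 to -1.26 for the lines in the same order, a mean of -0.59 ± 0.20 (limma adjusted p = 0.0822). PFKFB3 and PFKFB4, which make the activator of phosphofructokinase, were at 0.04 ± 0.21 and 0.11 ± 0.44. The second PFKFB3 probe, a dimmer one, was at 0.41 ± 0.55.

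Of the HIF targets outside glycolysis that were tested, EGLN3, the prolyl hydroxylase that is itself induced by HIF and marks HIF alpha for degradation, rose most. Its probe (hg19 chr14:34393422-34393481, transcript NM_022073) went from 0.36 with siCtrl to 2.43 with siDLEU1-2 for HSC-3, from -3.85 to -0.72 for KON, and from -2.65 to -0.72 for Ca9-22. KON after siCtrl was the only array of the 6 not well above background, and HSC-3 after siCtrl was brighter than the other lines after siDLEU1-2. HSC-3 rose 4.21-fold, KON at least 8.75-fold and Ca9-22 3.82-fold, and the log2 fold change averaged 2.38 ± 0.66 (SD, n = 3 lines, limma adjusted p = 0.0260). In KON the probe was kept for testing only through the siDLEU1-2 array, where it was brighter, so its call is not independent of the filter. The mean was 1.43 with normexp background correction (limma adjusted p = 0.0179), and with 1 line left out the limma adjusted p was 0.0828 without HSC-3, 0.103 without KON and 0.0524 without Ca9-22. The second EGLN3 probe was not well above background on any array. EGLN1, the main oxygen sensor of this family, was at -0.07 ± 0.56.

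Most of the other HIF targets had smaller values above 0 and none was called. P4HA2 and P4HA1, which hydroxylate collagen, were at 0.68 ± 0.38 and 0.29 ± 0.11, ADM (adrenomedullin, a vasodilator) was at 0.59 ± 0.35, and ANKRD37 was at 0.34 ± 0.24. VEGFA, which drives vessel growth, was at 0.37 ± 0.21 by its brighter probe and at 0.51 ± 0.10 by the other (limma adjusted p = 0.197 and 0.0872). NDRG1, a stress-induced gene, went from 5.91 to 6.11 for HSC-3, from 5.80 to 5.82 for KON, and from 3.13 to 4.33 for Ca9-22, so its mean of 0.47 ± 0.64 came mainly from Ca9-22. BNIP3, which marks mitochondria for removal, was at 0.14 ± 0.26.

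BNIP3L (NIX), which also marks mitochondria for removal, was read differently by its probes. The probe at hg19 chr8:26270286-26270345 went from 3.48 to 4.10 for HSC-3, from 1.75 to 3.34 for KON, and from 1.92 to 3.08 for Ca9-22, a mean of 1.12 ± 0.48 (limma adjusted p = 0.0532). A second probe to the same transcript (NM_004331, chr8:26252758-26252817) gave 0.70 ± 0.24 (limma adjusted p = 0.0652). The former was called higher with normexp (limma adjusted p = 0.0344), among probes well above background on all 6 arrays (limma adjusted p = 0.0376), where the latter was called too (limma adjusted p = 0.0492), and with a floor set under dim values (limma adjusted p = 0.0463). The brightest probe, annotated to AF370457 at chr8:26254988-26255047, gave 0.02 ± 0.23, and it was highest in Ca9-22, the line in which the other probes were lower than in HSC-3. The brightest probe stands for the gene in the medians given here, so BNIP3L counts there as near 0.

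CA9, CA12 and ANGPTL4 were bright in some lines only and were not tested. CA9, a carbonic anhydrase that acidifies the outside of hypoxic tumor cells, read 1.13 and 0.96 in HSC-3 and from -5.82 to -5.27 in the other lines, where it was not well above background. CA12, a related carbonic anhydrase, went from -2.09 with siCtrl to -5.54 with siDLEU1-2 for HSC-3, from 0.52 to -2.80 for KON, and from -5.41 to -5.23 for Ca9-22. The bound for CA12 in HSC-3 was at least 2.83-fold lower, its value in KON was 10.0-fold lower, and it was dim on both Ca9-22 arrays. ANGPTL4, a secreted inhibitor of lipoprotein lipase, went in opposite directions: with siDLEU1-2 HSC-3 was at least 4.62-fold lower (-1.38 to -4.07), KON was 2.42-fold higher (1.27 to 2.54), and Ca9-22 was dim (-4.10 to -4.81). With 1 array per line and siRNA the difference between HSC-3 and KON was not tested.

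**Figure D3:**
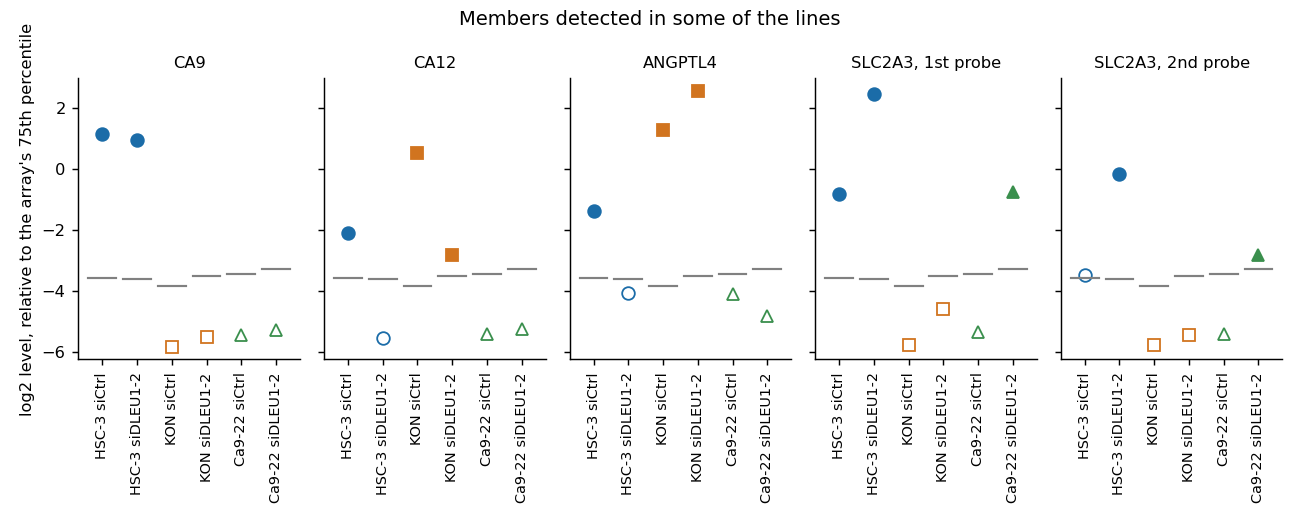
Log2 level of CA9, CA12, ANGPTL4 and the SLC2A3 probes on each of the 6 arrays, filled where the probe was well above background and open where it was not, with a gray bar at the dimmest signal found well above background on that array. CA9 is filled in HSC-3 only, and both SLC2A3 probes are filled after siDLEU1-2 in HSC-3 and Ca9-22.

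HIF1A, the oxygen-regulated subunit found in most cells, had values above 0 by both of its probes in every line and was not called. The brighter probe went from 4.19 to 4.94 for HSC-3, from 2.71 to 3.71 for KON, and from 2.14 to 2.46 for Ca9-22, a mean of 0.69 ± 0.35 (limma adjusted p = 0.0890), and the other gave 0.79 ± 0.37 (limma adjusted p = 0.0741). EPAS1 (HIF-2 alpha), the subunit with narrower expression, went from 6.10 to 6.35, from 6.06 to 6.41 and from 5.09 to 4.80 for the lines in the same order, a mean of 0.11 ± 0.34. HIF alpha is set mainly by protein stability, which arrays do not measure.

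The roles are set side by side by their medians. With 1 probe per gene, the median of the mean log2 fold changes was 0.35 over 10 HIF targets, 9 of them above 0, and 0.08 over the 17 enzymes, 10 of them above 0, beside 0.01 over all probes kept. The HIF target median leaves out CA9, CA12 and ANGPTL4, which were not tested. Of these, CA12 was lower in HSC-3 and KON, and ANGPTL4 was lower in HSC-3 and higher in KON. Line by line the HIF target median was 0.31 (HSC-3), 0.34 (KON) and 0.33 (Ca9-22), and it was 0.34 without EGLN3. The enzyme median was 0.20, 0.15 and -0.18 in the same order, it was 0.10 without PFKM, and it was -0.05 when HSC-3 was left out. The kinase median was -0.24, with -0.22, -0.31 and -0.17 in the 3 lines. These medians are descriptions of lists of genes that share regulators, and no test was made of them.

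**Figure D4:**
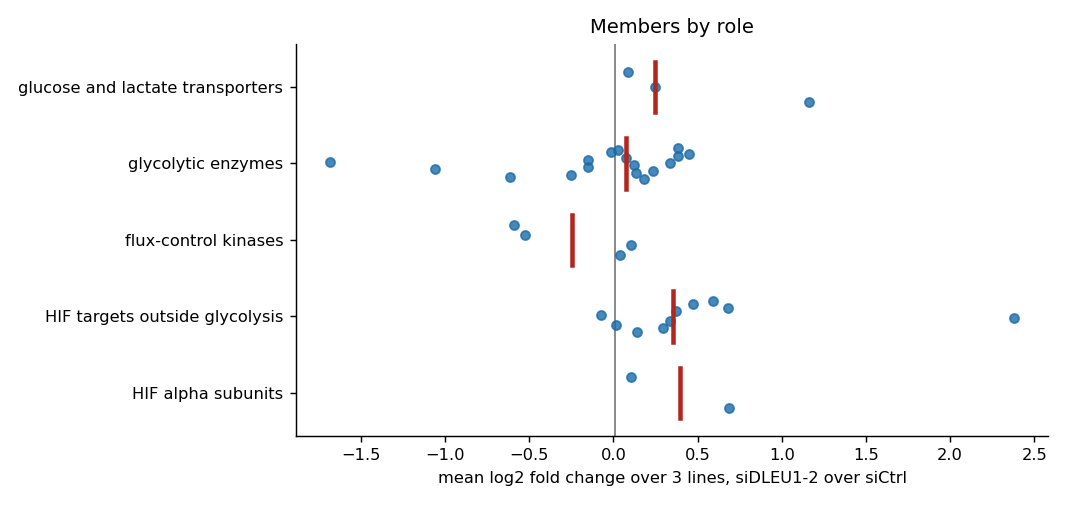
Mean log2 fold change over the 3 lines for each tested member gene, grouped by role, with a red bar at each median and a gray line at the median of all probes kept. The HIF target median is at 0.35 with EGLN3 at the far right, and the enzyme median is at 0.08 with PFKM at the far left.

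As over all probes, many more member probes were called between the cell lines than between the siRNAs. Most member probes were highest in HSC-3, and most were lowest in Ca9-22. Limma on both arrays of each line called 37 of the 47 member probes between at least 1 pair of lines, where 59.6% of all probes were called. Ca9-22 was lower than HSC-3 for 31 member probes (21.3% of all probes) and higher for 1 (15.2%). KON was lower than HSC-3 for 18 (19.2%) and higher for 4 (17.0%), and Ca9-22 was lower than KON for 18 (18.8%) and higher for 2 (14.4%). The median difference of Ca9-22 from HSC-3 on the log2 scale was -0.95 for the enzymes and -1.11 for the HIF targets, beside -0.13 for all probes. For KON against HSC-3 it was -0.60 for the enzymes and -0.07 for the HIF targets, beside -0.07 for all probes. The spread in this test is how far the difference between lines moved between the 2 siRNAs, and no line had a second siCtrl array. The count of 37 fell to 18 without HSC-3 and to 18 without Ca9-22, where only 1 pair of lines is left to compare, and to 28 without KON.

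The siCtrl arrays, which are among the arrays used in that test, were also ranked alone and gave a similar order of the lines. HSC-3 was the highest line for 34 of 47 member probes (72.3%), against 38.4% of all probes kept, and for 19 of the 22 enzyme probes and all 3 transporter probes. It was the highest for 7 of the 14 HIF target probes, with KON the highest for 6, and for 2 of the 5 kinase probes, with KON the highest for 3. Ca9-22 was the highest for 2 of 47 (4.26%) against 28.4%, and the lowest for 29 (61.7%) against 37.7%. Neighboring probes of 1 gene share their source, and HIF targets and enzymes share regulators, so these counts are not of independent genes.

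Among the members tested, the widest range over lines after siCtrl was that of EGLN3, at 4.21 log2 units, with HSC-3 highest and KON, not well above background, lowest. CA9, CA12, ANGPTL4 and SLC2A3, which were dim in some lines, are outside this ranking. Over both siRNAs EGLN3 was -3.68 in KON (limma adjusted p = 0.00683) and -3.08 in Ca9-22 (limma adjusted p = 0.00755) relative to HSC-3, while KON and Ca9-22 differed by 0.60 (limma adjusted p = 0.235), and the KON values include the siCtrl array that was not well above background. BNIP3 followed at 2.91, running from 5.95 to 5.91 for HSC-3, from 4.34 to 4.77 for KON, and from 3.04 to 3.05 for Ca9-22, and each step down was called (limma adjusted p = 0.0118 for KON against HSC-3 and 0.0110 for Ca9-22 against KON). PFKP ranged over 2.82 and NDRG1 over 2.78, and for both only Ca9-22 stood apart: it was 9.12-fold below HSC-3 for PFKP (limma adjusted p = 0.00624) and 4.85-fold below for NDRG1 (limma adjusted p = 0.0118), and KON was not called against HSC-3 (limma adjusted p = 0.140 and 0.666). PGK1 ranged over 2.39, from 8.09 and 8.78 in HSC-3 through 7.28 and 7.62 in KON to 5.70 and 5.81 in Ca9-22, and Ca9-22 was 6.40-fold below HSC-3 (limma adjusted p = 0.00553).

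The HIF alpha subunits were also lowest in Ca9-22, where HIF1A was 4.81-fold lower than in HSC-3 (limma adjusted p = 0.00656) and EPAS1 2.43-fold lower (limma adjusted p = 0.0169). Not all members followed that order, since after siCtrl 12 of the 47 probes were lowest in KON and 6 in HSC-3. SLC16A3 was lowest in KON, 4.55-fold below HSC-3 (limma adjusted p = 0.00654), and SLC16A1 was 3.39-fold below (limma adjusted p = 0.00992). ANKRD37 was highest in KON and lowest in Ca9-22, a 4.31-fold difference (limma adjusted p = 0.00753), and PFKFB4 was 2.92-fold higher in KON than in HSC-3 (limma adjusted p = 0.0158). PFKM, the enzyme gene called lower on knockdown, was not called between any lines (limma adjusted p = 0.428, 0.384 and 0.939).

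**Figure D5:**
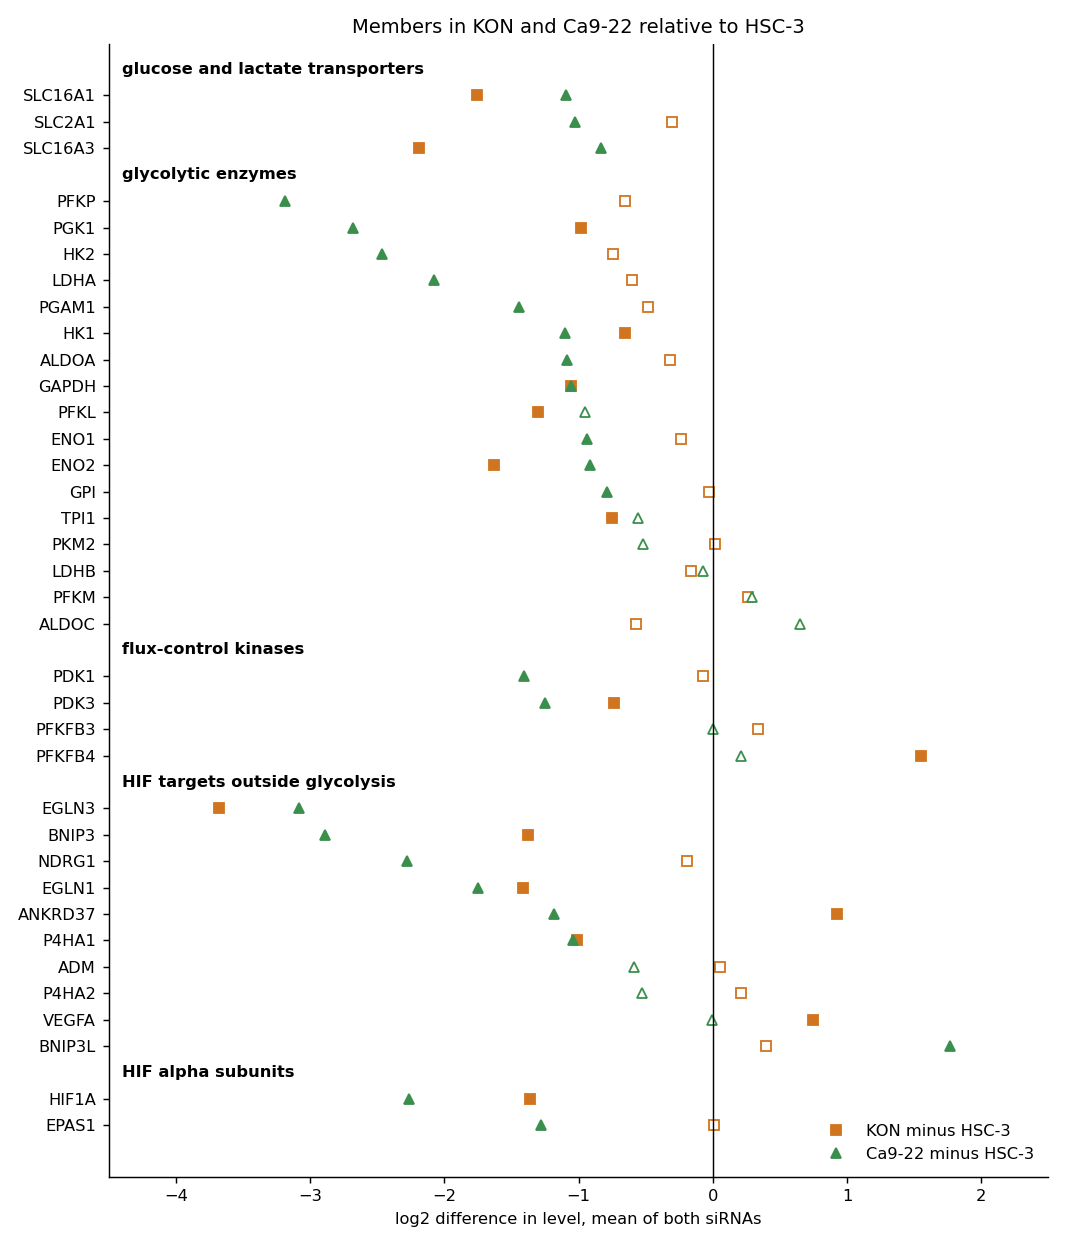
Log2 difference in level of each tested member gene in KON and in Ca9-22 relative to HSC-3, from both arrays of each line, filled where the limma adjusted p was below 0.05. Most genes lie left of 0, with EGLN3 and PFKP in Ca9-22 at -3.08 and -3.19, and BNIP3L in Ca9-22 lies at 1.77 by its brightest probe.

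Genes next to these pathways were counted from lists of related functions, against the same 3.98% of all probes called higher and 4.52% called lower. At the entry of pyruvate into the mitochondrion, 14 probes for 12 genes were tested, and 2 probes were called higher and 2 lower. BRP44L (now MPC1), a subunit of the mitochondrial pyruvate carrier, went from 2.41 to -0.40 for HSC-3, from 3.19 to -0.32 for KON, and from 1.98 to -1.16 for Ca9-22, 8.89-fold lower on average (-3.15 ± 0.35, limma adjusted p = 0.0227), and its second probe was 6.26-fold lower in HSC-3, at least 13.6-fold lower in KON and at least 4.98-fold lower in Ca9-22, where the siDLEU1-2 arrays were not well above background. PDP1, the phosphatase that switches pyruvate dehydrogenase on, was 2.38-fold higher (1.25 ± 0.16, limma adjusted p = 0.0257). PDHX, a structural subunit of the pyruvate dehydrogenase complex, was 1.93-, 3.34- and 4.06-fold higher for HSC-3, KON and Ca9-22 (1.57 ± 0.56, limma adjusted p = 0.0359). Of 16 probes for 12 other glycolysis genes, 1 was called higher and 2 lower. PFKFB2, a kinase that makes the activator of phosphofructokinase, was at 0.83 ± 0.20 by the called probe (limma adjusted p = 0.0460) and at 0.25 ± 0.30 by its brighter probe, which was not called (limma adjusted p = 0.396). SLC2A9, a urate and hexose carrier, was at -1.17 ± 0.20 (limma adjusted p = 0.0297). LDHD, a mitochondrial D-lactate dehydrogenase, was 5.62-fold lower in HSC-3 and 3.84-fold lower in Ca9-22, and at least 1.24-fold lower in KON, where the siDLEU1-2 array was not well above background, so its call (limma adjusted p = 0.0227) rests in part on a dim value.

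Of 18 probes for 16 genes of the HIF machinery, 1 was called in each direction, which is near the shares of all probes. HIF1AN, the asparaginyl hydroxylase that blocks HIF alpha activity, fell 2.42-fold on average (-1.28 ± 0.30, limma adjusted p = 0.0305). CITED2, which competes with HIF alpha for the coactivators CBP and p300, was 4.18-, 1.83- and 4.17-fold higher by the called probe (1.67 ± 0.69, limma adjusted p = 0.0429), and its second probe was at 1.53 ± 1.19 (limma adjusted p = 0.114). Of 49 probes for 37 other genes induced by hypoxia, 3 were called higher and 2 lower, also near the shares of all probes. TMEM45A was at 2.72 ± 0.49 (limma adjusted p = 0.0231) and DUSP1, a phosphatase of MAP kinases, at 1.92 ± 0.18 (limma adjusted p = 0.0227). ITGB2, an integrin subunit, was 2.19-fold higher in HSC-3, 2.30-fold in KON and at least 1.35-fold in Ca9-22, where the siCtrl array was dim (limma adjusted p = 0.0251), and its other tested probe was at 0.27 ± 0.31 (limma adjusted p = 0.288). CCNG2, a cyclin that slows the cell cycle, was 2.26-fold lower in HSC-3, 3.398-fold in KON and at least 2.80-fold in Ca9-22 by its more changed probe (limma adjusted p = 0.0257), and 2.51-, 2.01- and at least 2.18-fold lower by the other (limma adjusted p = 0.0274), with Ca9-22 after siDLEU1-2 dim for both. ITGB2, CCNG2, LDHD and the second BRP44L probe were kept in those lines only through the brighter array, so their calls are not independent of the filter. No probe of 7 pentose phosphate genes was called, and of 12 probes for 10 glycogen metabolism genes that of PGM2 was called lower.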

How the data were processed

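Per the labels, 100 ng of total RNA per culture was labeled with Cy3 for an Agilent human expression array, and all 6 arrays lay on 1 slide. The authors deposited the output of Feature Extraction 10.7.3.1 (10.7 in the submitters' processing notes). The intensity used, the processed signal, was background-subtracted by that software. A deposited series table of the same intensity, which differed by at most 0.497%, served as an alternative. Gene names and hg19 coordinates are those of the array design.

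Control and outlier spots were left out, each array's 75th percentile was subtracted from its log2 intensity, and spots of a probe were averaged. A probe was kept where at least 50% of its spots were well above background on at least 1 array of every line, which kept 19956 of 50599 (55 had no usable spot). Limma 3.58.1 (R 4.3.3) modeled siRNA and cell line, with 2 residual degrees of freedom and Benjamini-Hochberg adjustment over all probes kept (threshold 0.05). The siRNA comparison was tested on simulated data, and contrasts between lines, which came from the same fit, were not. Cell line served as the block since each line gave both its arrays, and deviations from the siRNA means correlated within lines at 0.83, 0.81 and 0.82. Nothing names separate cultures, so p-values measure only the spread between these samples, and the number of arrays limits precision.

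The kept probe with the highest mean level represented a gene. Full values were given for members called or over 2-fold the same way in all lines and for the 5 with the widest range over lines after siCtrl, and genes of related lists were named where called and over 2-fold the same way in all lines. PDHX, PFKFB2, CITED2, PGM2 and other genes were named after their values were seen. The members and lists were chosen with earlier results of these data known.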

Additional observations from a re-analysis of the deposited data

How the results depend on the processing

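Of the 2 member probes called higher by limma, 0 remained called with no filter on dim probes, with no replicate block and with the methods' t-test, and 0 whichever line was left out. There were 3 with normexp and with dim values raised to the floor, where a BNIP3L probe joined SLC16A3 and EGLN3, and 3 among probes well above background on all 6 arrays, those of SLC16A3 and 2 of BNIP3L, with EGLN3 not tested. Limma or the t-test called 0 of all probes with no filter, no replicate block, the t-test, or HSC-3 or KON left out (6816, 1357, 1373, 4547 and 4676 at an unadjusted p under 0.05), so those losses are not particular to the members. Without Ca9-22, 127 probes were called higher and 117 lower. Of probes called lower (1), there were 3 with normexp and 2 among probes well above background on all 6 arrays, where PFKP joined PFKM, 0 with no filter, no replicate block or the t-test, and 0 to 1 with 1 line left out (1 without Ca9-22). Every member call was lost without the pairing by cell line. Probes over 2-fold in all lines (2) numbered 1 among probes well above background on all 6 arrays, where EGLN3 is not tested, 4 at a 1.5-fold threshold, and 2 to 5 with 1 line left out (5 without HSC-3). Calls between lines (37) numbered 18 to 28 with 1 line left out and 29 to 39 otherwise. The HIF target median (0.35) was 0.28 with median centering, 0.33 with the 75th percentile of probes detected on all arrays, 0.30 with normexp, 0.34 among probes well above background on all arrays, 0.29 with no filter, 0.46 with a gene's kept probes averaged, and 0.29 to 0.39 with 1 line left out. The enzyme median (0.08) was 0.0036 with median centering, 0.0053 with quantile normalization, and -0.05 to 0.20 with 1 line left out, below 0 without HSC-3. SLC16A3, PFKM and EGLN3 each kept their direction under every setting in which they were tested. With 3 pairs of arrays and 2 residual degrees of freedom, a member that missed the threshold is not shown to be unaffected, and a probe dim in a line has only a bound there.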
